A study of Bos taurus with 24 samples.

Results

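The interferon response genes described here were 9 genes picked by symbol: the receptor chains IFNAR1 and IFNAR2, the signal transducers STAT2 and IRF9, the transcription factor IRF1, and the interferon-stimulated genes ISG15, IFI6, MX1 and MX2. Of the 24621 rows of the count table, 8 carried these symbols, and IRF9 was found under its older name ISGF3G, a synonym listed by RefSeq. All 9 genes therefore had a row. The symbols alone decided which rows were taken, but the genes were chosen with earlier results of these data known.

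The genes were examined in 24 single early blastocysts of Holstein cattle, the stage at which the embryo first has an outer trophectoderm around an inner cell mass. The study set 8 in vivo derived embryos beside 8 from serum-containing culture and 8 from serum-free culture. The semen of 1 bull was used for all embryos. In vivo derived embryos, 5 male and 3 female, came from 3 cows on day 7. The cultured embryos came from slaughterhouse oocytes in 3 in vitro experiments and were collected between day 6 and day 7. In serum-containing medium (3 male and 5 female embryos), oocytes were matured with 20% fetal bovine serum and embryos cultured with 5%. In serum-free medium (5 male and 3 female embryos), serum was replaced by epidermal growth factor during maturation and by albumin, insulin, transferrin and selenium during culture. Embryos are named by letter and number, A for in vivo, B for serum-containing and C for serum-free. The labels do not tie an embryo to a cow, an experiment or a sequencing lane, so the p-values below measure the spread between embryos, and these sources cannot be told apart from it.

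Type I interferons bind a receptor of the chains IFNAR1 and IFNAR2, whose kinases TYK2 and JAK1 phosphorylate STAT proteins, STAT2 among them. STAT2 and IRF9 are parts of the complex that switches on interferon-stimulated genes, among them the ubiquitin-like modifier ISG15, the dynamin-like antiviral GTPases MX1 and MX2, and the mitochondrial protein IFI6. IRF1 is a transcription factor that acts on many of the same promoters and is itself induced by interferon. In ruminants the trophectoderm secretes interferon tau, a type I interferon that signals pregnancy to the mother, and ISG15, MX1 and MX2 are known as its targets in the uterus.

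The libraries held between 3253051 and 9000447 unique exon counts, with 11735 to 14732 genes detected. Levels are given as CPM, counts scaled to a common library size after TMM normalization, and 3 counts, taken as the floor, corresponded to 0.347 to 0.926 CPM depending on the embryo. This floor covers counting error only. Levels were not compared between genes, because no transcript lengths were used. Each library began with the same mass of RNA from a whole embryo, so fewer cells of a type and less RNA per cell cannot be told apart. On the scale of log2(CPM + 1), the embryos B2, B3, B5 and B7 had median correlations of 0.706 to 0.822 across genes with the other embryos, against 0.873 to 0.917 for the other 20. The main results on serum embryos are therefore also given without those 4 embryos. Comparisons of male serum embryos alone were not repeated in this way, because B5 and B7 are among the 3 of them.

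The labelled tissue was checked with marker genes. The inner cell mass markers POU5F1, NANOG, SOX2 and DPPA3 had counts in all 24 embryos, as did the trophectoderm markers GATA2, GATA3, TFAP2C, KRT8 and KRT18. The trophectoderm markers CDX2 and ELF5 had at most 11 and 12 counts and TFAP2A had counts in 21 embryos. The summed level of the 8 trophectoderm markers was 7500 to 14790 CPM in vivo, 5003 to 28240 CPM in serum-free and 319 to 5137 CPM in serum-containing medium. The serum and in vivo ranges did not overlap. This sum mostly followed KRT8 and KRT18, whose median counts over the 24 embryos were 24890 and 4688, against 995.5 for TFAP2C, the next. The summed level of the 4 hypoblast markers GATA4, GATA6, SOX17 and PDGFRA was 343 to 588 CPM in vivo, 129 to 401 CPM in serum-free and 27.0 to 235 CPM in serum-containing medium, again without overlap between in vivo and serum embryos. It mostly followed PDGFRA, with a median count of 1096 over the 24 embryos, against 85.5 for GATA6, the next. Of 13 leukocyte markers, PTPRC had at most 16 counts, CORO1A at most 3 and LCP1 at most 4, while CSF1R reached 627. CD68 had counts in all 24 embryos, at most 33, and LYZ, CD74 and CD14 reached 53, 35 and 33. The summed level of the leukocyte markers was 15.2 to 39.3 CPM in vivo, 6.15 to 44.9 CPM in serum-free and 29.9 to 116 CPM in serum-containing medium.

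Testing required 15 counts or more in each embryo of 1 of the compared groups, and a gene was called with a Benjamini-Hochberg adjusted p under 0.05 in edgeR's quasi-likelihood test and a fold change of at least 2. IRF1 and STAT2 passed the count limit in all 10 comparisons, IFNAR1 in 9 and IRF9 in 5, and the other 5 genes in none. Where groups are said not to overlap, the share of all genes without overlap is not given. Such statements describe the values only.

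**Figure D1:**
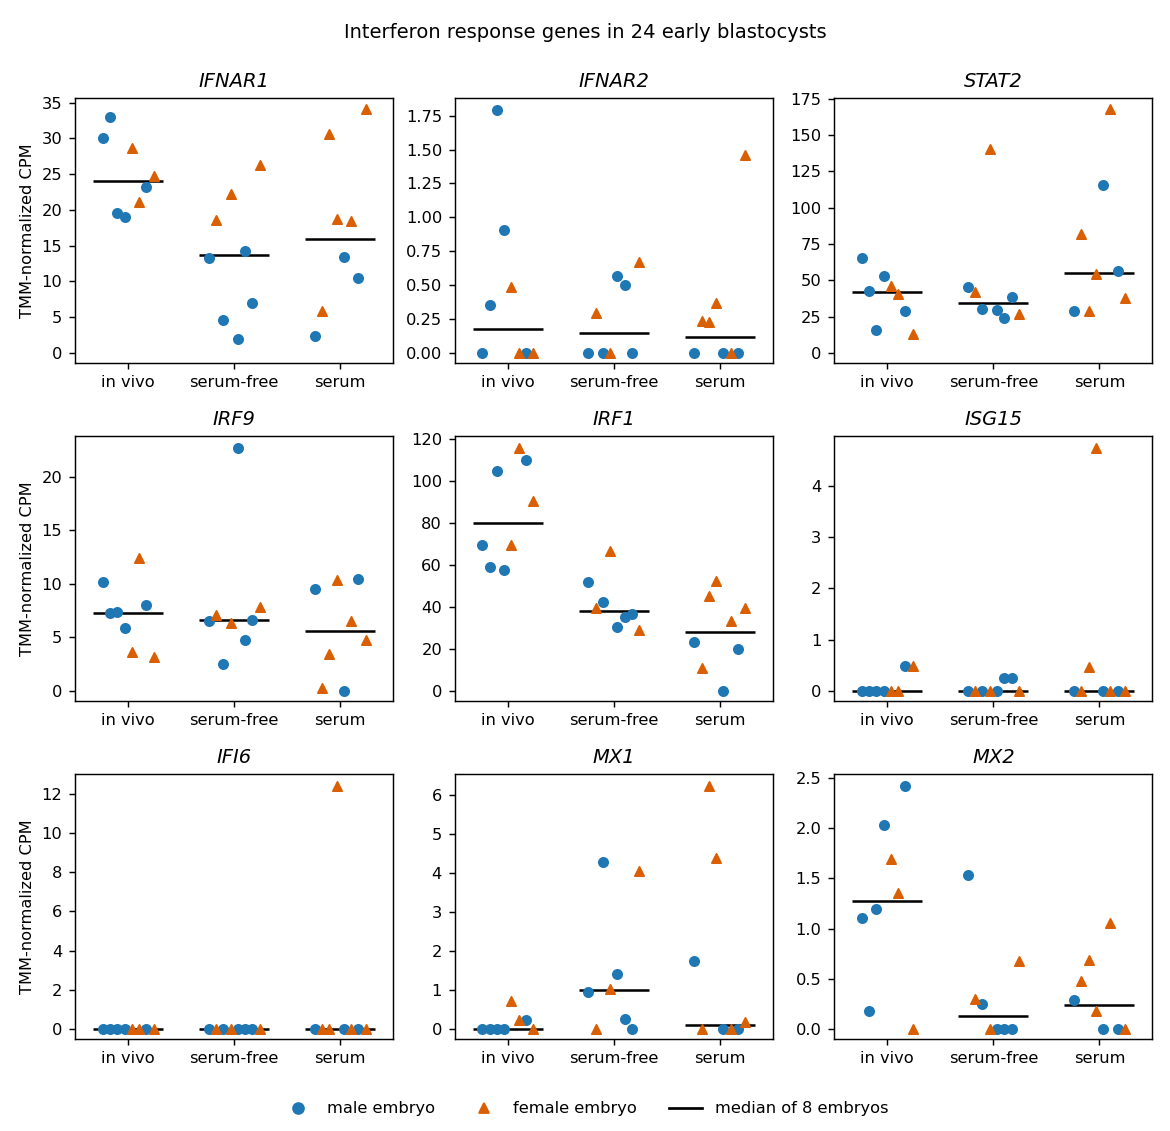
TMM-normalized CPM of the 9 interferon response genes by culture, 1 point per embryo (circles, male; triangles, female), with a bar at the median of the 8 embryos; each panel has its own linear scale. The 8 in vivo points of IRF1 lie above all 8 serum points, and IFI6 is above 0 in 1 embryo.

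Of the receptor chains, IFNAR1 was detected in every embryo. In vivo it had a lowest, median and highest level of 19.0, 23.97 and 33.0 CPM. In serum-free medium the corresponding levels were 1.99, 13.8 and 26.3 CPM, and in serum-containing medium 2.31, 15.9 and 34.1 CPM. The in vivo embryos had the narrowest range, while 6 embryos of each medium lay below all in vivo embryos. The order of the means was in vivo, 24.9 ± 5.17 CPM (SD, n = 8), serum, 16.8 ± 11.2 CPM (SD, n = 8), and serum-free, 13.5 ± 8.63 CPM (SD, n = 8). In vivo and serum embryos, neighbours in this order, did not differ by the test, and neither did in vivo and serum-free embryos. The log2 fold change, in vivo over serum, was 0.58 (SE 0.38, adjusted p = 0.265) and, in vivo over serum-free, 0.87 (SE 0.36, adjusted p = 0.162). Serum against serum-free was under the count limit for this gene, so those neighbours were not compared by the main test. In vivo against each medium, IFNAR1 passed the limit only through the in vivo embryos.

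Male and female embryos of serum-free medium were apart in IFNAR1. The 5 male serum-free embryos had 1.99 to 14.3 CPM and the 3 female ones 18.6 to 26.3 CPM, which did not overlap. In vivo, the 5 male embryos had 19.0 to 33.0 CPM and the 3 female ones 21.2 to 28.6 CPM. The male embryos of each medium (2.31 to 13.4 CPM in serum) thus lay below all male in vivo embryos, whereas female embryos of each medium overlapped the female in vivo embryos. Male and female serum embryos overlapped, since the female B2 had 5.91 CPM. None of these comparisons was called by edgeR's quasi-likelihood test. In male embryos the log2 fold change was 1.52 over serum (SE 0.52, adjusted p = 0.061) and 1.57 over serum-free medium (SE 0.45, adjusted p = 0.0879), and in female embryos 0.19 (SE 0.50, adjusted p = 0.85) and 0.15 (SE 0.35, adjusted p = 0.898). Male over female, it was -1.44 in serum-free medium (SE 0.55, adjusted p = 0.573), -1.32 in serum-containing medium (SE 0.69, adjusted p = 0.863) and 0.01 in vivo (SE 0.29, adjusted p = 0.992). In male embryos against each medium, IFNAR1 passed the count limit only through the in vivo embryos, so calls there depend on the limit. Its lowest count in male embryos was 84 in vivo, 8 in serum and 7 in serum-free medium. Between the sexes within each medium, it passed only through the female embryos. In male embryos IFNAR1 was called against serum by DESeq2 (1.49, adjusted p = 0.0188), by edgeR's exact test (adjusted p = 0.0266), with counts thinned to equal depth (adjusted p = 0.0414), and when B5 was left out (1.96, adjusted p = 0.0368). Against serum-free medium it was called by DESeq2 (1.59, adjusted p = 0.0133) and by the exact test (adjusted p = 0.0229). Without the 4 serum embryos that stood apart, the value in vivo over serum for both sexes together was 0.43 (adjusted p = 0.510).

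IFNAR2, the other chain of the receptor, was near the floor. It had at least 1 count in 4 of 8 embryos of each culture, with 17 counts in all in vivo, 8 in serum-free and 12 in serum-containing medium. Its highest values were 9 counts in A3 and 8 in B8. The groups overlapped, and no difference was detectable at this depth. In the RefSeq annotation (assembly ARS-UCD2.0, not the build of the counts), the neighbouring genes are IFNGR2 and IL10RB for IFNAR1, and IL10RB lies on 1 side of IFNAR2. IL10RB, a chain of the lambda interferon receptor, was tested in the same fits and not called, with a log2 fold change of 0.31 in vivo over serum (SE 0.39, adjusted p = 0.572).

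STAT2 was detected in all embryos with 54 to 998 counts. Its lowest, median and highest levels were 13.1, 41.8 and 65.6 CPM in vivo. In serum-free medium they were 24.2, 34.2 and 141 CPM, and in serum-containing medium 28.9, 55.3 and 168 CPM. The groups overlapped: 3 serum embryos were above and 2 in vivo embryos below all embryos of the other group. The 4 embryos with the highest values were all cultured, B6 (168 CPM), C3 (141 CPM), B5 (115 CPM) and B2 (81.6 CPM). The mean order was serum, 71.3 ± 48.7 CPM (SD, n = 8), serum-free, 47.1 ± 38.5 CPM (SD, n = 8), and in vivo, 38.2 ± 18.1 CPM (SD, n = 8), and no neighbours differed by the test.

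For STAT2 the log2 fold change, in vivo over serum, was -0.90 (SE 0.39, adjusted p = 0.0887). It was -0.31 in vivo over serum-free (SE 0.37, adjusted p = 0.679) and 0.58 serum over serum-free (SE 0.42, adjusted p = 0.343). Single embryos decided 2 of these values. Without B1, STAT2 passed the thresholds as lower in vivo than in serum (log2 fold change -1.04, adjusted p = 0.04995). Without C3, it passed as higher in serum than in serum-free medium (log2 fold change 1.09, adjusted p = 0.0487), and the value in vivo over serum-free became 0.16. Without the 4 serum embryos that stood apart, the value in vivo over serum was -0.91 (adjusted p = 0.169).

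IRF9 was lower in counts, with 13 to 55 in vivo, 10 to 80 in serum-free and 0 to 57 in serum-containing medium. Its lowest, median and highest levels were 3.15, 7.31 and 12.4 CPM in vivo, 2.52, 6.60 and 22.7 CPM in serum-free and 0, 5.61 and 10.5 CPM in serum-containing medium. The 3 medians lay close together, and the extremes were single embryos, C4 with 80 counts, B2 with 1 and B5 with 0. IRF9 passed the count limit in 5 comparisons, those of male embryos with each medium, of female embryos with serum-free medium, and of the sexes in vivo and in serum-free medium. None was called, with log2 fold changes between -0.17 and 0.28 and adjusted p between 0.868 and 0.953.

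IRF1 was the member that differed between cultures. In vivo, its lowest, median and highest levels were 57.7, 79.9 and 115.5 CPM. In serum-free medium they were 29.2, 38.1 and 66.5 CPM, and in serum-containing medium 0, 28.3 and 52.5 CPM. All 8 in vivo embryos lay above all 8 serum embryos, as they did in the summed trophectoderm and hypoblast markers, whose part in this was not tested. In serum-free medium 7 of 8 embryos lay below all in vivo embryos, and C3 lay among them. B5 had no IRF1 count in 9000447, which allows a level of up to 0.347 CPM, and no count of IRF9, although it was the deepest library. The means were 84.5 ± 23.5 CPM (SD, n = 8) in vivo, 41.5 ± 12.4 CPM (SD, n = 8) in serum-free medium, and the serum embryos averaged 28.1 ± 17.8 CPM (SD, n = 8).

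IRF1 was called in vivo over serum with a log2 fold change of 1.60 (SE 0.54, adjusted p = 0.0322) and in vivo over serum-free with 1.02 (SE 0.20, adjusted p = 0.00473). These comparisons share the in vivo embryos, and against serum IRF1 passed the count limit only through them. The media themselves, the neighbours in the order of levels, did not differ by the test, with a log2 fold change of -0.58 serum over serum-free (SE 0.55, adjusted p = 0.485), and -0.16 (adjusted p = 0.820) without the 4 serum embryos that stood apart. Of the members, 1 of 3 tested was called against serum, where 13.8% of all genes tested were called, and 1 of 3 against serum-free medium, where 2.2% were. Between the media 0 of 2 members tested were called (0 also had an unadjusted p under 0.05, and DESeq2 called 0), where 8.91% of genes were. The median log2 fold change of the members tested was 0.58 against serum and 0.87 against serum-free medium, and that of all genes tested was -0.01 and 0.00. With 3 members tested, each median is the value of IFNAR1, which was not called. IFNAR1 passed the count limit only through the in vivo embryos, so these medians depend on the limit.

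The call of IRF1 against serum kept its direction but crossed the threshold when single embryos were left out. Without A3, A7, A8, B1 or B7, the adjusted p was 0.0529, 0.0635, 0.0606, 0.052 and 0.0612, with log2 fold changes of 1.54, 1.48, 1.5, 1.53 and 1.51. Without B5, the embryo with no count, the log2 fold change was 1.37 (adjusted p = 0.00291), and without the 4 serum embryos that stood apart it was 1.19 (adjusted p = 0.0040). The difference was thus also called without the lowest embryos. Against serum-free medium the adjusted p was between 0.00217 and 0.0131 in all 16 fits with an embryo left out, while the log2 fold change was between 0.93 and 1.13. Without A3, A7, A8, A9, C4, C6, C7 or C8 it fell below the fold limit of 2 (0.96, 0.93, 0.95, 0.98, 0.96, 0.98, 0.99 and 0.95 on the log2 scale). In one fit over all 24 embryos the adjusted p was 0.323 with the same size of change, 1.01.

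**Figure D2:**
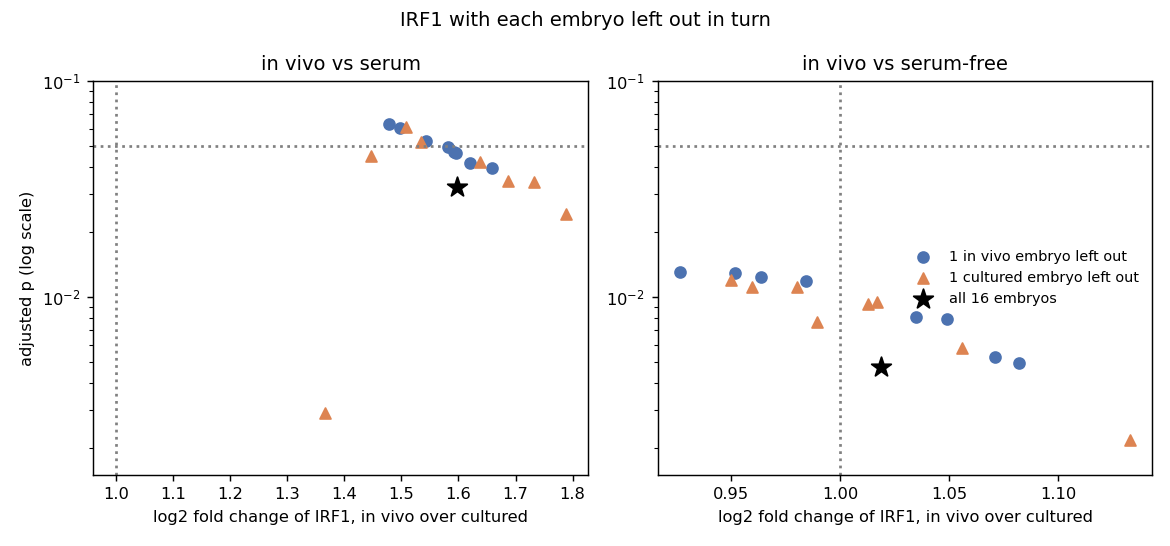
Log2 fold change of IRF1 (x axis, in vivo over cultured embryos) against its adjusted p (y axis, log scale) with each of 16 embryos left out in turn (circles, an in vivo embryo; triangles, a cultured embryo) and with all 16 (star); dotted lines mark an adjusted p of 0.05 and a log2 fold change of 1. Against serum, 5 points lie above the line of adjusted p, and against serum-free medium 8 points lie left of the line of fold change.

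In each sex IRF1 was also higher in every in vivo embryo than in every cultured embryo of the same sex. How many of all genes were separated in this way is not given. In male embryos the levels were 57.7 to 110 CPM in vivo, 30.6 to 51.8 CPM in serum-free and 0 to 23.4 CPM in serum-containing medium. In female embryos they were 69.6 to 115.5 CPM in vivo, 29.2 to 66.5 CPM in serum-free and 10.9 to 52.5 CPM in serum-containing medium. The lowest serum levels were thus mainly in male embryos, but male and female serum embryos overlapped. None of these comparisons with 3 to 5 embryos a group was called by edgeR's quasi-likelihood test. In male embryos the log2 fold change was 2.52 over serum (SE 0.92, adjusted p = 0.0737) and 1.00 over serum-free medium (SE 0.24, adjusted p = 0.0488, just under the fold limit at 0.999). In female embryos it was 1.32 over serum (SE 0.43, adjusted p = 0.141) and 1.02 over serum-free medium (SE 0.33, adjusted p = 0.218). Against serum, IRF1 passed the count limit in male embryos only through the in vivo ones. The male serum embryos include B5 and B7, which stood apart.

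Other tests changed the calls of IRF1 within the sexes. DESeq2 called it in male embryos against serum-free medium (1.01, adjusted p = 0.00386) and in female embryos against serum (1.35, adjusted p = 0.0475), and edgeR's exact test in male embryos against serum (2.48, adjusted p = 0.0343). Left-out embryos also changed them. In male embryos against serum it was called without B5 (log2 fold change 1.87, adjusted p = 0.00658) and without B1 (3.18, adjusted p = 0.0459). In male embryos against serum-free medium it was called without C1 (1.13, adjusted p = 0.0389), and in female embryos against serum without B2 (1.11, adjusted p = 0.0318). In all of them the direction was the same. Over all genes tested, 13.3% were called in male embryos against serum, 0.966% in male embryos against serum-free medium, 0.418% in female embryos against serum and 0.304% in female embryos against serum-free medium. The number of members called was 0 in each, where DESeq2 called 1, 2, 1 and 0 members. At an unadjusted p under 0.05, 2 of 4, 2 of 4, 1 of 3 and 1 of 4 members tested passed in the same order.

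Within a culture, male and female embryos did not differ in any member by the test. The percentages of all genes called were 0.653% in vivo, 0.173% with serum and 0.139% without, and 0 members were called in each by edgeR and by DESeq2. At an unadjusted p under 0.05, 0 of 4 members passed in vivo, 0 of 3 in serum-containing medium and 2 of 4 in serum-free medium. The latter were IFNAR1 and STAT2. For STAT2 the male over female value was -1.06 (SE 0.45, adjusted p = 0.593), and 1.8e-05 without C3. The interaction of sex and culture, the test of whether the in vivo difference itself depended on sex, passed for 0 of 4 members in either medium with edgeR and with DESeq2, and for 0% of all genes in either medium with edgeR (DESeq2, 14 genes for serum and 5 for serum-free medium). At an unadjusted p under 0.05, 0 members passed for serum and 1 for serum-free medium. That member was IFNAR1, whose in vivo over serum-free difference was larger in male embryos by 1.43 on the log2 scale (SE 0.63, adjusted p = 0.722).

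**Figure D3:**
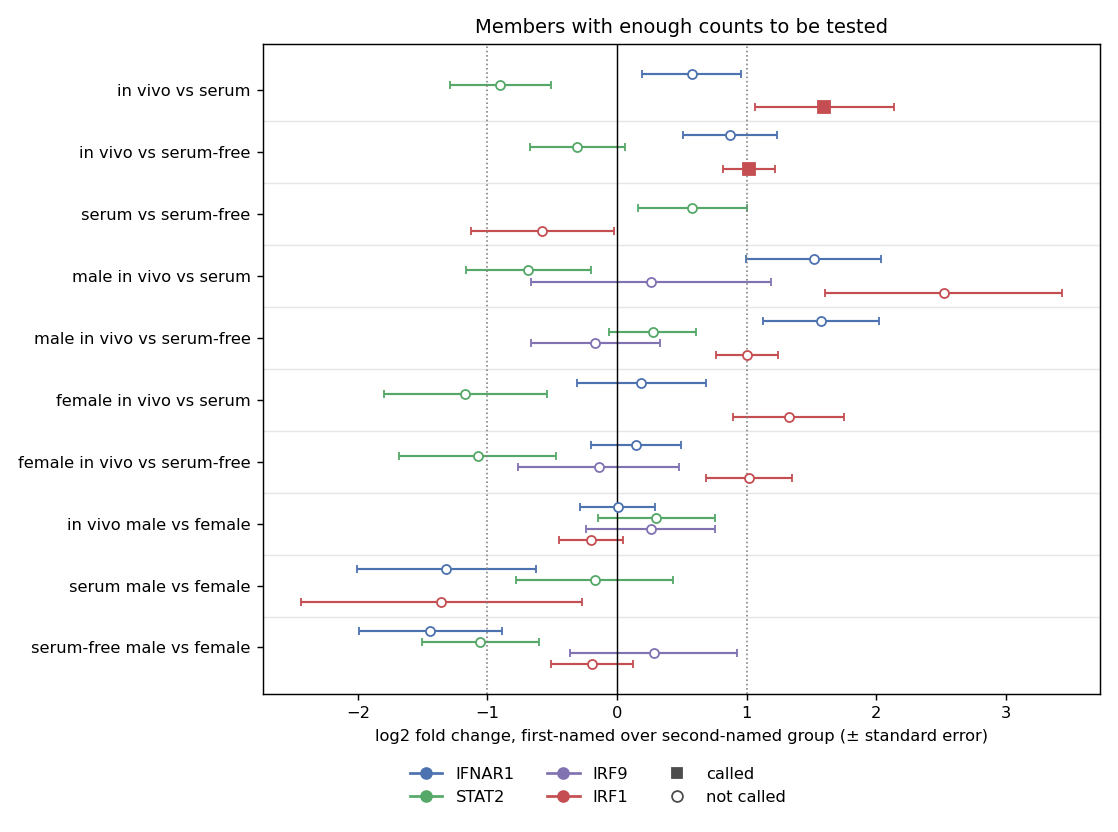
Log2 fold changes (first-named over second-named group, x axis) with standard errors for the 4 members with enough counts, in the 10 comparisons in which each could be tested; filled squares were called, open circles were not, and dotted lines mark a fold change of 2. IRF1 has the only 2 filled squares, at 1.60 and 1.02, and all 6 of its in vivo over cultured values are on the right.

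The interferon-stimulated genes ISG15, IFI6, MX1 and MX2 were at or near 0 in most embryos. ISG15 had 4 counts in all in vivo (2 each in A8 and A9), 2 in serum-free medium (1 each in C6 and C7) and 28 in serum-containing medium. Of these 28 counts, B4 held 26 and B3 the other 2. IFI6 had no count in 23 embryos and 68 counts in B4, a level of 12.4 CPM. Both genes were thus carried by 1 female embryo produced in serum-containing medium, and no fold change is given against groups at or under the floor.

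MX1 was detected in 3 of 8 in vivo embryos with at most 3 counts. It had at least 1 count in 6 of 8 serum-free embryos, up to 18 in C8 and 17 in C2, and in 4 of 8 serum embryos, up to 27 in B3 and 24 in B4. The medians were 0 CPM in vivo, 0.991 CPM in serum-free and 0.091 CPM in serum-containing medium, and 5 serum-free and 3 serum embryos lay above all in vivo embryos. MX2, the neighbouring gene in the RefSeq annotation, had another distribution. It was detected in 7 of 8 in vivo embryos with up to 10 counts, in 4 of 8 serum-free embryos with up to 8 and in 5 of 8 serum embryos with up to 6. Its medians were 1.27, 0.126 and 0.235 CPM, and 6 in vivo embryos lay above all serum embryos.

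These genes were under the count limit, so they were also examined in a fit of every gene with at least 1 count. There 0 of 6 low members were called in vivo against serum (7.32% of all genes were), 0 of 5 in vivo against serum-free medium (0.772%) and 0 of 7, IFNAR1 among them, in serum against serum-free medium (2.97%). At an unadjusted p under 0.05, 2, 1 and 2 of the low members passed. The shares of all genes include genes above the limit. MX1 was the nearest in vivo against each medium, with fitted log2 fold changes of -3.18 over serum (adjusted p = 0.112) and -3.12 over serum-free medium (adjusted p = 0.142). MX2 was on the other side with 1.84 (adjusted p = 0.220) and 1.75 (adjusted p = 0.389). At these counts the size of such fitted values depends on the prior count of the fit, and they are no bounds.

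The embryo B4 was examined further, after its values had been seen. Among all genes of the table, 29 had at least 20 counts in 1 embryo and at most 3 in every other. They were spread over 6 embryos, of which 12 genes were in B5, 8 in B2, 4 in B4, 3 in B3 and 1 each in B7 and C7. The 4 genes of B4 were ISG15, IFI6, IFI27 and OAS1Y, all members or genes of the interferon lists, and no such gene of the other embryos was in those lists. IFI27, a mitochondrial interferon-stimulated protein, had 93 counts in B4 and at most 3 elsewhere. OAS1Y, a 2′-5′-oligoadenylate synthetase copy of cattle, had 59 counts in B4 and at most 2 elsewhere.

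B4 also held 20 of the 21 serum counts of HERC6, a HERC-family ligase, and 24 counts of MX1, next to the 27 of B3. Its level of IRF1 was 52.5 CPM, the highest of the serum embryos. B4 was also the highest serum embryo in IFI35 (17.85 CPM), SAMHD1 (101.1 CPM) and SHISA5 (234.8 CPM), described below, but not in IFITM3, IFNT or DTX3L. Its STAT2 level was 54.1 CPM and its IRF9 level 10.4 CPM. The given levels of these 6 genes were all inside the range of other embryos. The library had 5086048 counts and a median correlation of 0.908 with the other embryos, within the range of the 20 embryos that did not stand apart. As a single embryo it has no replicate, and its cow or experiment is not in the labels. Its summed level of the 13 leukocyte markers was 78.1 CPM, below those of B2, B5 and B7. In B4, 7 of these markers had counts. There were 358 of CSF1R, 32 of CD68, 21 of CD14 and 6 of ITGB2. CD3D had 5, CD3E 4 and PTPRC 3, and the other markers, CORO1A and LCP1 among them, had none.

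**Figure D4:**
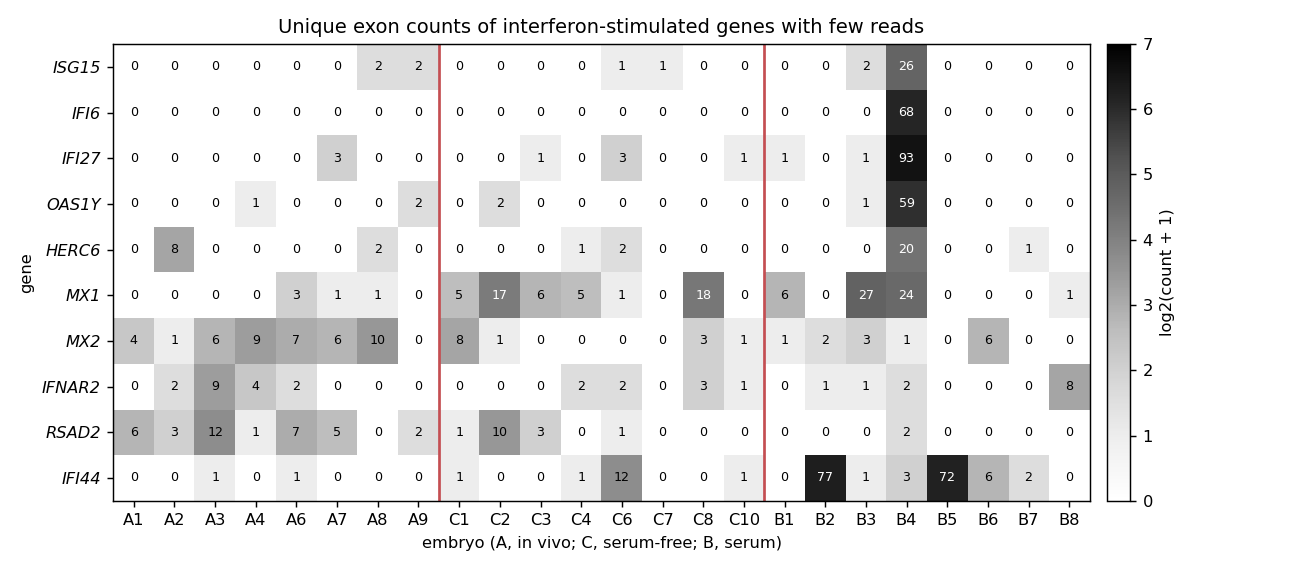
Unique exon counts (numbers in the cells; shading, log2 of the count plus 1) of 10 interferon-stimulated and receptor genes with few reads, by embryo; lines separate in vivo, serum-free and serum embryos. The column of B4 holds 26, 68, 93, 59 and 20 counts of ISG15, IFI6, IFI27, OAS1Y and HERC6, while IFI44 is high in B2 and B5 with 77 and 72.

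The rest of the pathway was read from lists of 106 genes with a row in the table. Of these, 7 of 28 tested were called in vivo against serum, all higher in vivo, where 7.34% of all genes tested were called in that direction. Against serum-free medium 0 of 30 tested were called (5 had an unadjusted p under 0.05, and DESeq2 called 0). Between the media 5 of 27 were called, all lower in serum, where 5.36% of all genes were. The median log2 fold change of the list was 0.72, 0.21 and -0.61 in these comparisons, against -0.01, 0.00 and 0.02 for all genes tested. IFNT, IFI35, DTX3L and SHISA5 passed the count limit against serum only through the in vivo embryos. Between the media, IFNT, IFI35 and LGALS3BP passed it only through the serum-free embryos. Genes low in vivo and high in only some serum embryos were not tested, so the direction of these calls and the list medians depend on the limit. Without the 4 serum embryos that stood apart, IFNT, JAK1, IFI35, IFITM3 and SAMHD1 kept their calls in vivo against serum, and DTX3L and SHISA5 lost theirs. IRF2BP2, a repressor that binds IRF2, was newly called there, lower in vivo (-1.19, adjusted p = 0.0414). Between the media IFI35 and IFITM3 kept their calls, and IFNT, SAMHD1 and LGALS3BP lost theirs. By sex, 10 of 32 were called in male embryos against serum, all higher in vivo, where 8.03% of all genes were called in that direction. The male serum embryos include B5 and B7, which stood apart, and no fit of male embryos was made without both. In female embryos 0 of 36 were called (8 with an unadjusted p under 0.05), where 0.233% of all genes were. These counts do not show that the sexes differed. The interaction of sex and culture for serum passed for 0 of 8446 genes by edgeR and 14 by DESeq2. The summed trophectoderm and hypoblast markers given above, which mostly followed KRT8, KRT18 and PDGFRA, moved with the same groups. Their part in these differences was not tested.

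Of the interferon ligands, 14 rows were in the table and 1, IFNT, passed the count limit. IFNT, interferon tau, had a lowest, median and highest level of 4.14, 14.4 and 49.1 CPM in vivo. It had 5.18, 19.5 and 80.8 CPM in serum-free and 0, 2.95 and 5.83 CPM in serum-containing medium. The serum embryos were low, with 7 of 8 in vivo and 7 of 8 serum-free embryos above all of them. It was called in vivo over serum with a log2 fold change of 2.54 (SE 0.65, adjusted p = 0.00736) and serum over serum-free with -3.05 (SE 0.67, adjusted p = 0.00893), and not called in vivo over serum-free (-0.51, SE 0.50, adjusted p = 0.608).

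Without the 4 serum embryos that stood apart, the value of IFNT in vivo over serum was 1.87 (adjusted p = 0.0343) and that of serum over serum-free was -2.36 (adjusted p = 0.0716). Cattle have several nearly identical interferon tau genes, and since reads were counted only where they mapped to a single place, the counts of IFNT are uncertain. The row IFN-TAU had at most 6 counts. The next interferons by mean count, IFNB2 and IFNAG_2, had at most 12 and 6 counts in an embryo, and 11 of the 14 interferon rows had a median count of 0.

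Of the kinases and STATs, JAK1 was 91.6 ± 17.7 CPM (SD, n = 8) in vivo, 77.9 ± 33.3 CPM (SD, n = 8) in serum-free medium, and 40.3 ± 19.1 CPM (SD, n = 8) in the serum embryos. All in vivo embryos were above all serum embryos, and JAK1 was called with a log2 fold change of 1.18 (SE 0.26, adjusted p = 0.00341), and 1.09 (adjusted p = 0.00136) without the 4 serum embryos that stood apart. Serum over serum-free it was -0.96 (SE 0.31, adjusted p = 0.0395), under the fold limit, and it was called without B2, B6 or C7 (-1.12, -1.06 and -1.01). TYK2 had 0 to 126 counts, with overlapping groups, and was under the count limit in the comparisons of all embryos of 2 cultures. It passed the limit in female embryos against each medium and between the sexes in vivo and in serum, and was not called. STAT3 passed the adjusted p but not the fold limit in vivo over serum (0.77, SE 0.20, adjusted p = 0.00779) and over serum-free medium (0.63, SE 0.17, adjusted p = 0.031).

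Of 42 interferon-stimulated effectors, 11 were tested in vivo against serum and 5 were higher. IFI35, which binds the protein NMI, had a log2 fold change of 2.42 (SE 0.56, adjusted p = 0.00431), and IFITM3, which restricts virus entry, one of 2.02 (SE 0.33, adjusted p = 0.000428). SAMHD1, which degrades deoxynucleotides, followed with 1.62 (SE 0.33, adjusted p = 0.00191). For these 3 genes, as for JAK1, no in vivo embryo overlapped a serum embryo, a description without the share of all genes beside it. All 3 calls held without the 4 serum embryos that stood apart (1.80, 1.56 and 1.11).

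DTX3L, a ubiquitin ligase partner of PARP9, and SHISA5, an interferon-responsive membrane protein, were called near the threshold with 1.66 (SE 0.61, adjusted p = 0.047) and 1.32 (SE 0.49, adjusted p = 0.0489). The call of DTX3L was lost when any of 12 embryos was left out (all in vivo embryos, B1, B3, B5 and B6; adjusted p 0.0517 to 0.0866). That of SHISA5 was lost for 13 (all in vivo embryos, B1, B3, B5, B7 and B8; adjusted p 0.0554 to 0.0890). Both calls were also lost with sex as a covariate (adjusted p = 0.0539 and 0.0804) and without the 4 serum embryos that stood apart (DTX3L 1.10, adjusted p = 0.0844; SHISA5 0.81, under the fold limit).

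Serum over serum-free, 4 of 12 effectors tested were lower. They were IFI35 (-2.16, SE 0.58, adjusted p = 0.0196), IFITM3 (-1.62, SE 0.34, adjusted p = 0.00737), SAMHD1 (-1.28, SE 0.36, adjusted p = 0.023) and LGALS3BP, a secreted glycoprotein (-2.02, SE 0.67, adjusted p = 0.0442). IFITM3 was lower in all 8 serum embryos than in any serum-free embryo. Without the 4 serum embryos that stood apart, IFI35 (-1.53, adjusted p = 0.0473) and IFITM3 (-1.14, adjusted p = 0.0416) were called, and SAMHD1 (-0.75, adjusted p = 0.181) and LGALS3BP (-1.15, adjusted p = 0.209) were not. The call of LGALS3BP was lost for 11 of 16 left-out embryos, those other than B2, B4, B6, B8 and C4 (adjusted p 0.0556 to 0.0872).

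The remaining lists had 1 to 4 genes tested against serum and none called by edgeR's quasi-likelihood test. Receptors of other interferons included IFNGR1, a chain of the interferon-gamma receptor, at 1.47 (SE 0.57, adjusted p = 0.0626), which was called by DESeq2 (adjusted p = 0.0281), by the exact test (adjusted p = 0.0376), and without B1 (1.75) or B2 (1.25). Of the ISG15 conjugation genes, 1 of 4, the ligase HERC5, was tested, at 1.16 (SE 0.46, adjusted p = 0.0662), and it was called by DESeq2 (adjusted p = 0.0468), by the exact test (adjusted p = 0.0425), and without B6 (1.34) or B7 (1.37). HERC5 passed the count limit only through the in vivo embryos, so these calls depend on the limit. Single left-out embryos also gave calls of TBK1 (without B8, 1.15) and LGALS3BP (without B4, 1.91) higher in vivo, and of IRF2BP2 (-1.47) and TAP2 (-1.15), both without B2, lower in vivo. The kinase TBK1, which acts below nucleic acid sensors, was otherwise at 0.95 (SE 0.40, adjusted p = 0.0819). Against serum-free medium, DDX58, an RNA sensor, was called without C8 (-2.12) and TAP1, a peptide transporter, without C10 (-1.28).

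In the fit of every gene with a count, 2 of the 73 genes of the lists under the count limit were called in vivo against serum. In that fit 7.32% of all genes were called, including those above the limit, so the 2 shares are of unlike sets. DTX3L and SHISA5 lost their calls in that fit (adjusted p = 0.107 and 0.0683), and the other list genes called against serum kept theirs. Against serum-free medium 0 of 70 were called (0.772% of all genes), and between the media 0 of 74 (2.97%). RSAD2, the antiviral enzyme viperin, had counts in 7 of 8 in vivo embryos, up to 12, and in 1 serum embryo, with 2 (adjusted p = 0.0228). IFI44 had at most 1 count in vivo and 161 counts in serum, of which B2 held 77 and B5 72 (adjusted p = 0.0086). The 2 genes thus went in opposite directions, and IFI44 rested on a pair of embryos that stood apart.

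**Figure D5:**
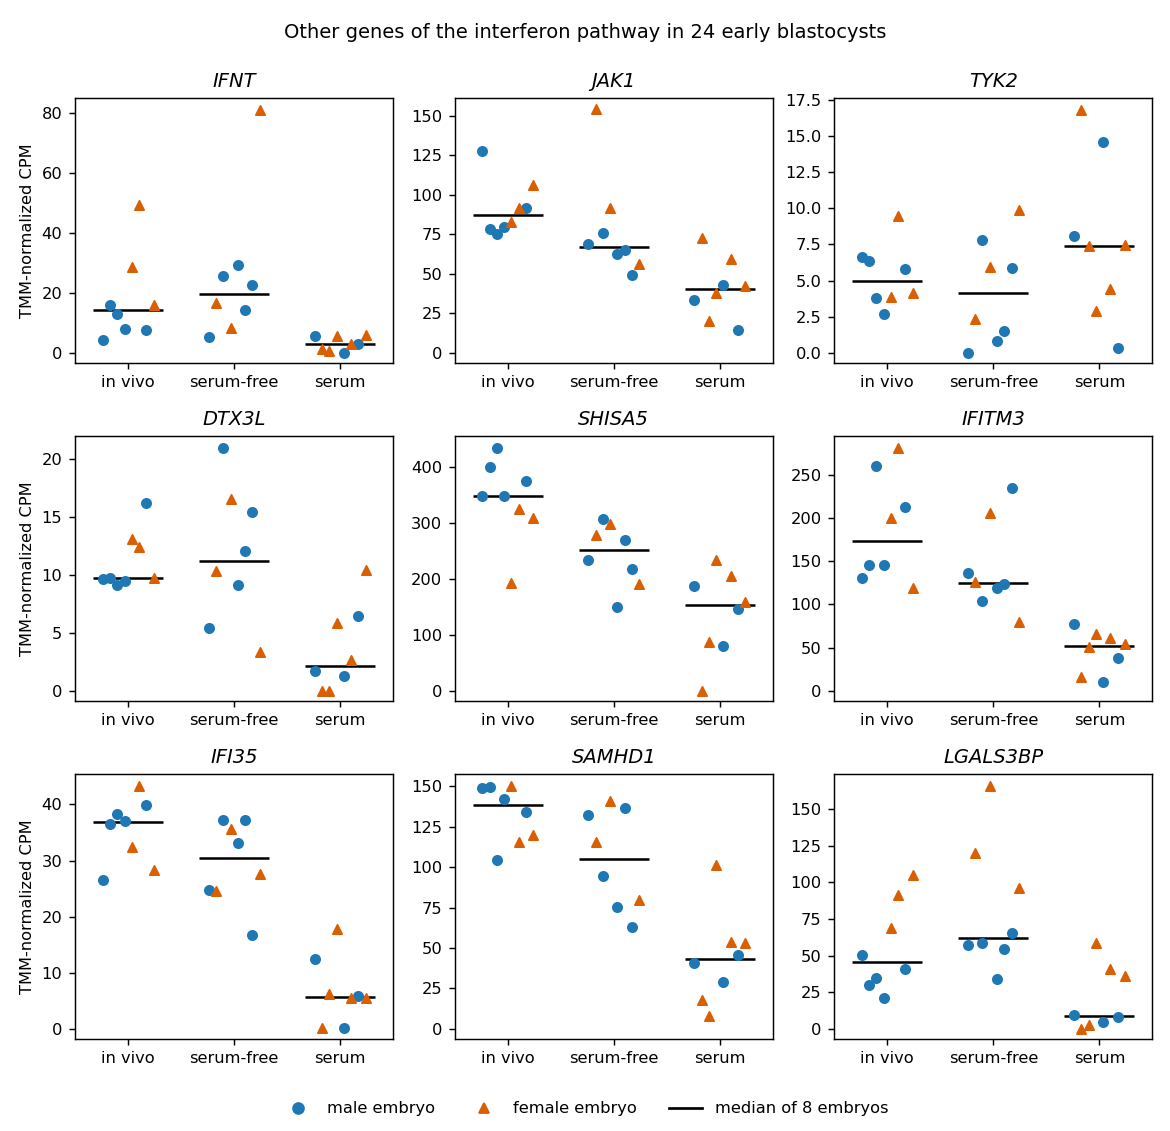
TMM-normalized CPM of 9 other genes of the interferon pathway by culture, 1 point per embryo (circles, male; triangles, female), with a bar at the median of 8 embryos and a linear scale for each panel. The serum points of IFITM3 lie below all points of both other groups, and those of JAK1, IFI35 and SAMHD1 lie below all in vivo points.

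The genes whose levels across the 24 embryos were most like those of IRF1 were GARNL3, with a domain of GTPase-activating proteins, and MCL1, an inhibitor of apoptosis, with Spearman correlations of 0.886 and 0.853 among 8709 genes. For STAT2 they were CUL2, a scaffold of ubiquitin ligases (0.814), and EXOSC10, a nuclease of the RNA exosome (0.797). For IFNAR1 they were the phosphatase PHLPP2 (0.750) and BAK1, a promoter of apoptosis (0.743). These values describe 24 embryos that share the culture groups and libraries, and carry no test. None of the other 8 members was among these genes.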

How the data were processed

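RNA from 24 single early blastocysts was reverse transcribed and amplified with a kit that does not mark strand, and sequenced as paired reads. After trimming, the authors aligned reads to the UMD3.1 bovine build with CLC Genomics Workbench and deposited whole-number counts of uniquely mapped exon reads per gene, not normalized. Reads shared by near-identical genes are therefore missing, and overlapping or antisense genes cannot be separated. Totals per embryo ran from 3253051 to 9000447 counts.

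Groups came from the labels. The members and lists were chosen with earlier results of these data known. Comparisons were tested with edgeR 4.0.16 in R 4.3.3 (TMM, quasi-likelihood test) in fits holding only the groups compared, for genes with at least 15 counts in every embryo of at least 1 group, adjusted by Benjamini-Hochberg over all genes tested, and called under 0.05 with a fold change of at least 2. The standard error is the log2 fold change over the root of F. CPM used TMM factors over 24 embryos. Pathway genes were named when called between cultures (the 10 largest changes at most), with JAK1, TYK2 and the 3 interferon rows of highest mean count always named. Genes of like pattern were the 2 with the highest Spearman correlation, for members averaging at least 10 CPM. Other genes were named after their values were seen. Results of 2 listed genes are not reported here, and the list counts leave them out. DESeq2 1.42.0, the exact test, other filters, thinned counts, 1 fit over 24 embryos, sex as a covariate and left-out embryos were tried. The scripts were tested on simulated data. No sequences are printed, since no sequence of these genes was in the reference used here.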

Additional observations from a re-analysis of the deposited data

Results flagged for a closer look

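Among 25 sets of 8 embryos (9 genes in 3 cultures, without 2 sets that were all at 0), 6 held an embryo set apart from the other 7 on the scale of log2(CPM + 1). The limit used, 0.526, flags about 1 in 20 sets of normally distributed values. That rate does not hold for sets near 0 counts, so the 6 flags are not set against chance. The measure is the gap to the nearest embryo as a share of the range of the group. In serum-containing medium, B4 was highest in ISG15 with 26 counts, the next embryo having 2 (gap 0.783), and in IFI6 with 68 counts, the next having 0 (gap 1.0). With the other 7 embryos at 0, the gap of IFI6 could take no other value. B5 was lowest in IRF1 with 0 counts, the next having 46 (gap 0.622). B8 was highest in IFNAR2 with 8 counts, the next having 2 (gap 0.654). In serum-free medium, C3 was highest in STAT2 with 824 counts, the next by level having 235 (gap 0.651). In vivo, A6 was highest in MX1 with 3 counts, the next having 1 (gap 0.604), a difference at the floor. The effect of leaving out B5 and C3 on the tests is given with IRF1 and STAT2.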

How the results depend on the processing

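Numbers of members and pathway genes called depended on single embryos and settings. With each embryo left out in turn, members called ranged from 0 to 1 in vivo against serum, in vivo against serum-free, serum against serum-free, male in vivo against serum-free and female in vivo against serum, and from 0 to 2 in male in vivo against serum. Pathway genes called ranged from 5 to 10 in vivo against serum, 0 to 1 against serum-free and 4 to 7 between the media. With 15 counts or more required of every embryo in both groups, IRF1 was not tested, so 0 members were called in vivo against serum, and 3 pathway genes there and 2 between the media. One fit over 24 embryos called 0 members against serum-free medium, 1 in male in vivo against serum and 9 pathway genes between the media. In male in vivo against serum, the exact test and thinned counts called 2 members, and DESeq2 and the fit of every gene with a count 1. In male in vivo against serum-free, DESeq2 called 2, and DESeq2 size factors, the exact test and the fit of every gene 1. DESeq2 called 1 member in female in vivo against serum and the fit of every gene 1 in female in vivo against serum-free. Leaving out the 4 serum embryos that stood apart, chosen after seeing the data, gave a call of IRF1 in female in vivo against serum. Between the media, it left IFI35 and IFITM3 of the pathway genes called.

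Embryo numbers are shared between cultures, but the deviations of same-numbered embryos correlated between -0.159 and 0.104, so the numbers were not taken to pair embryos. With the replicate block, 0 members were called in vivo against serum-free (IRF1 0.99, adjusted p = 0.0295), 4 pathway genes in vivo against serum and 0 between the media, and the values of STAT2 and DTX3L in vivo over serum-free became 0.090 and 0.091 and that of IRF9 in male embryos 0.043.

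Signs also changed for small differences that were not called. IFNAR1 male over female in vivo was -0.012 with the stricter filter and -0.015 with thinned counts. With embryos left out, in vivo over serum-free STAT2 ranged from -0.48 to 0.16, DTX3L from -0.21 to 0.11 and IFNT from -0.94 to 0.035. IRF9 ranged from -0.38 to 0.80 in male in vivo over serum, -0.40 to 0.58 in male in vivo over serum-free, -1.07 to 0.18 in female in vivo over serum-free, -0.046 to 1.195 male over female in vivo and -0.47 to 0.51 in serum-free medium. IFNAR1 ranged from -0.031 to 0.41 in female in vivo over serum and -0.12 to 0.13 male over female in vivo. Male over female, STAT2 ranged from -0.059 to 0.61 in vivo, -0.82 to 0.38 in serum and -1.43 to 1.8e-05 in serum-free medium, and IRF1 from -0.36 to 0.018 in vivo and -0.41 to 0.23 in serum-free medium. The cause of these changes was not tested. All genes called ranged from 543 to 1403 against serum (1011 as reported), 64 to 208 against serum-free (161) and 28 to 847 between the media (640). For ISG15, IFI6, MX1, MX2 and IFNAR2, the depth allows no statement on differences of a few counts.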
